A study of Mus musculus with 2 samples.

Results

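The 8 genes described here, Pdgfra, Cspg4, Gpr17, Vcan, C1ql1, Neu4, Lhfpl3 and Tnr, were chosen by name as markers of oligodendrocyte precursor cells, out of 21938 protein-coding genes in the GENCODE M21 annotation of the mouse genome (GRCm38, also called mm10). For each gene the region examined was the gene body with 20 kb on each side. The assay was DNase-seq, in which DNase I cuts DNA that is not wrapped in nucleosomes and the cut ends are sequenced, so that a peak marks accessible chromatin and a footprint marks a short protected stretch inside it. There was 1 group of 2 libraries, labelled biological replicates 1 and 2, from hippocampus tissue ("layer of hippocampus" in another label) of female B6CASTF1/J mice aged 2 months, which are F1 hybrids of C57BL/6J and CAST/EiJ. Both libraries carry the same donor record, and the labels do not say whether the tissue came from separate animals, so differences between the libraries may be technical. No treatment, genotype or control was compared and no test between conditions was possible.

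Oligodendrocyte precursor cells divide throughout adult life in grey and white matter and give rise to the myelinating oligodendrocytes. They respond to platelet-derived growth factor through the receptor that Pdgfra encodes, carry the NG2 proteoglycan encoded by Cspg4, and receive synaptic contacts from neurons. They are a minority of hippocampal cells, most of which are neurons and astrocytes. In whole tissue, fewer cells with an open site and less accessibility per cell cannot be told apart. Pdgfra, Cspg4 and Vcan are also known from perivascular or fibroblast-like cells, and Tnr and C1ql1 from neurons, so a peak does not by itself name the cell type it came from.

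Of the deposited peak lists the longer ones were used, with 129779 entries for replicate 1 and 71895 for replicate 2. Peak values are the authors' signal, scaled per library on a scale that is not stated, and they serve here to rank and describe peaks. Among all peaks 46.6% of those in replicate 1 and 83.4% of those in replicate 2 overlapped a peak of the other library by at least 1 bp, called a partner below. In the regions of the 8 genes the libraries held 102 and 52 peaks, which merged into 104 peak regions. Of these 47 were listed in both libraries (called shared below), 53 in replicate 1 alone and 4 in replicate 2 alone. A partner was present for 49 of the 102 replicate 1 peaks (48.0%, 95% Wilson interval 38.6 to 57.6%) and for 48 of the 52 replicate 2 peaks (92.3%, 81.8 to 97%). These intervals cover counting error only.

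A promoter peak, meaning one within 1 kb of any annotated transcription start site (TSS), was present at 6 of the 8 genes in replicate 1, against 64.9% of all protein-coding genes. Replicate 2 had one at 5 of the 8, against 61.6% of all genes. In both libraries at once it was 5 of 8 (62.5%, 30.6 to 86.3%) against 60.3%, so the count was near the background. The 5 genes were Pdgfra, Vcan, C1ql1, Lhfpl3 and Tnr. Gpr17 had promoter peaks in replicate 1 alone, and Cspg4 and Neu4 had none in either library. Where present, the promoter values were low: the median over all genes with a promoter peak was 3.07 in replicate 1 and 2.76 in replicate 2, and each member lay below both medians. The highest, Tnr, stood at percentile 46.7 in replicate 1 and 27.2 in replicate 2, and the lowest shared one, Lhfpl3, at 14.2 and 9.86.

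**Figure D1:**
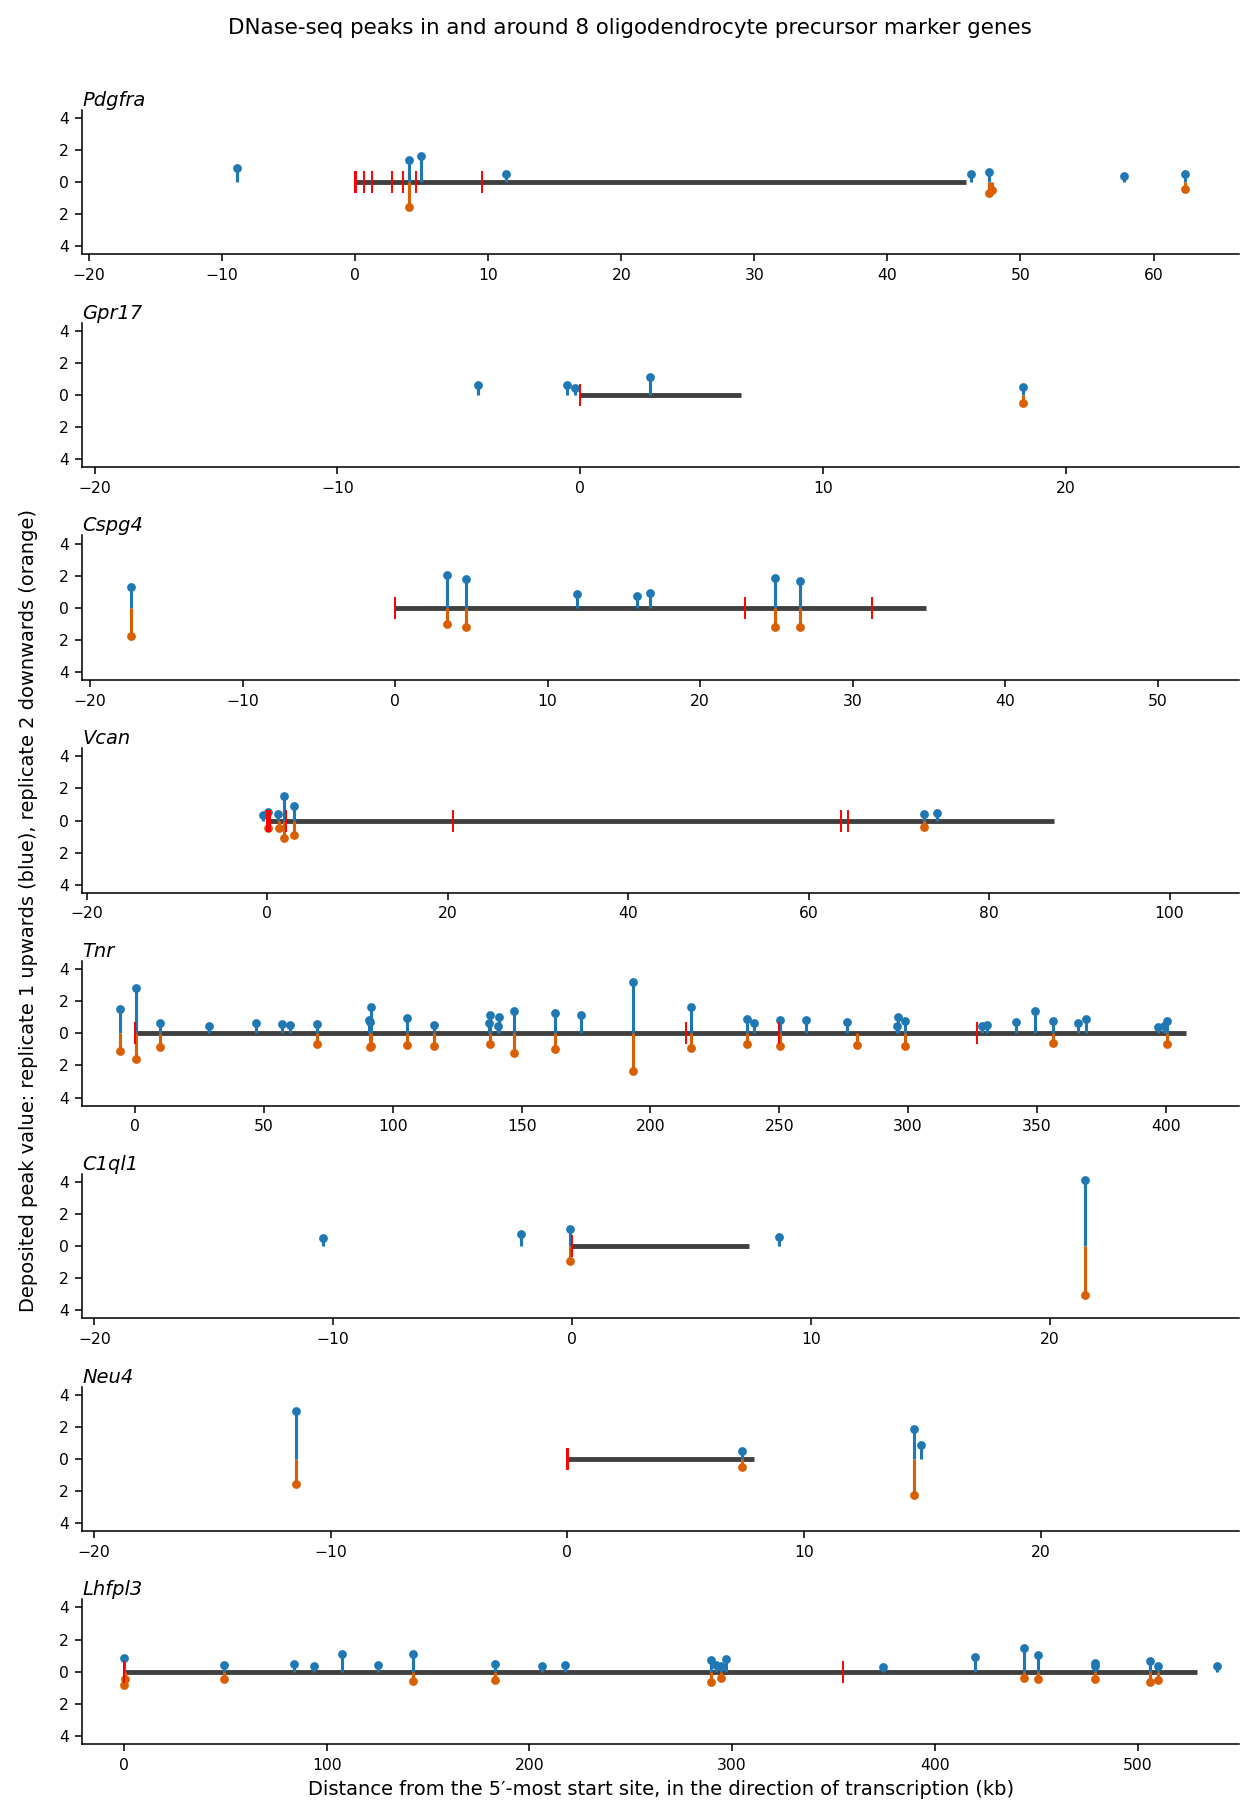
Peak regions of the 8 genes by distance from the 5′-most TSS (kb, in the direction of transcription), with the deposited peak value of replicate 1 upwards in blue and of replicate 2 downwards in orange. Grey bars are gene bodies and red ticks are annotated TSSs; the strongest peaks of Pdgfra lie inside the gene and those of Neu4 away from its start, while Tnr has 18 regions with both colours.

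Pdgfra (ENSMUSG00000029231.15, chr5:75152292-75198215, plus strand) encodes the receptor tyrosine kinase through which platelet-derived growth factor A drives precursor proliferation. The gene has 9 annotated TSSs, and its 5′-most one had no peak within 1 kb in either library. The nearest peak began 3949 bp (replicate 1) or 3929 bp (replicate 2) downstream. It was a region inside the gene at chr5:75156221-75156480 with a value of 1.39 in replicate 1 and 1.52 in replicate 2. The libraries thus placed the accessible site at the same location and at similar value, between the alternative TSS at position 75155899, from which it lay 322 bp away at the nearest, and the one at position 75156833. Among all coding genes 3.72% had this arrangement, no peak at the 5′-most TSS in either library and a peak at another TSS in both, and Pdgfra was the 1 of the 8 that had it. Replicate 1 had a second and stronger Pdgfra peak at chr5:75157161-75157320, with a value of 1.64, and replicate 2 had no peak there. It also had no base there in the list of bases with a false discovery rate (FDR) under 0.05. Among the 6150 replicate 1 peaks within 10% of that value 88.9% had a partner. This peak had the highest value of the 53 regions of the 8 genes listed in replicate 1 alone. Being the extreme of that set, it cannot show by itself that the absence was unusual, and this was not tested.

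The window of 200 bp at the middle of the shared Pdgfra region held 22 CpG dinucleotides and 70.5% G and C, against 49.3% G and C in the 300 bp around the 5′-most TSS. Footprints of the libraries overlapped at chr5:75156382-75156394 (13 bp in replicate 1) and chr5:75156382-75156392 (11 bp in replicate 2). A second pair overlapped by 1 bp, at position 75156301, in untranslated sequence. The stretch of the region outside annotated untranslated sequence is shown because it carries that footprint, shown in capitals (chr5:75156350-75156480, plus strand, 131 bp, RefSeq GRCm38.p6). It holds the letters GGGCGG, the core that Sp and Klf factors are known to bind, outside the capitals.
Pdgfra: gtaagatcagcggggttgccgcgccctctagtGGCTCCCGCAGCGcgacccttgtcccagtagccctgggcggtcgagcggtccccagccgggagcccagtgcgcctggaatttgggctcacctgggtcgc

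Beyond the promoter, Pdgfra had 2 shared regions, both downstream of the gene. The one at chr5:75199761-75200020 had values of 0.637 and 0.671, and the one at chr5:75214589-75214772 had 0.504 and 0.423. The strongest peak outside promoters in replicate 1 alone lay upstream at chr5:75143341-75143461 with 0.902. In all, 3 of its 9 regions were shared.

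Gpr17 (ENSMUSG00000052229.5) encodes a G protein-coupled receptor that appears in precursors committed to differentiate and is known to hold back their maturation. It has 1 annotated TSS and lies within the gene Lims2. Replicate 1 had peaks with a value of 0.407 at 185 bp and 0.610 at 365 bp from that TSS, and replicate 2 had none within 18136 bp. The strongest peak, in an exon at 2796 bp from the TSS, had a value of 1.10 in replicate 1, and 66.3% of replicate 1 peaks of like value had a partner. None of the 4 replicate 1 regions without a partner held a single base in the FDR list of replicate 2. The 1 shared region, with 0.513 and 0.506, covered a TSS of Lims2, 18136 bp from the Gpr17 start. So no peak nearer to Gpr17 than to another gene was seen in both libraries.

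Ligands and relatives of the members were counted beside all coding genes, of which 64.9% had a promoter peak in replicate 1 and 60.3% in both libraries. Of 20 listed genes, which include the platelet-derived growth factors, related receptors and the C1q-like, neuraminidase and Lhfpl families, 15 had a promoter peak in replicate 1 and 14 in both libraries. Neu1, the lysosomal sialidase, had the highest values (8.75 and 5.29), followed by C1ql3, a synaptic C1q-like protein (3.64 and 3.33). The leukotriene receptor genes Cysltr1 and Cysltr2 were among the 5 with no promoter peak in either library.

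Cspg4 (ENSMUSG00000032911.6, chr9:56865033-56899870, plus strand) encodes the transmembrane NG2 proteoglycan. No peak lay within 1 kb of any of its 3 TSSs, and the peak nearest to the 5′-most one began 3328 bp (replicate 1) or 3368 bp (replicate 2) downstream. Of its 8 regions 5 were shared, 4 inside the gene and 1 upstream. The strongest by mean was intronic, at chr9:56889821-56890020, with 1.87 in replicate 1 and 1.23 in replicate 2. The second lay upstream of the gene at chr9:56847621-56847800 with 1.30 and 1.77, and its nearest coding TSS, at 4163 bp, was that of Odf3l1. Replicate 1 was higher at each of the 4 regions inside the gene and replicate 2 at the upstream one. The other intragenic regions were named after their values were seen: chr9:56868361-56868580 (2.06 and 0.980), chr9:56869601-56869800 (1.78 and 1.18) and the exonic chr9:56891501-56891720 (1.64 and 1.18). Of the 3 regions in replicate 1 alone the strongest had 0.911.

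At 4 of the 5 shared Cspg4 regions a footprint of replicate 1 overlapped one of replicate 2. The strongest region is shown with these overlapping footprints in capitals, which span 29 bp in replicate 1 and an 8 bp and a 12 bp footprint in replicate 2 (chr9:56889821-56890020, plus strand, RefSeq GRCm38.p6). Footprints of 29 bp or more made up 3.23% of all footprints in replicate 1 and 2.47% in replicate 2, and 4 of the 159 in the peak regions of the 8 genes in replicate 1.
Cspg4: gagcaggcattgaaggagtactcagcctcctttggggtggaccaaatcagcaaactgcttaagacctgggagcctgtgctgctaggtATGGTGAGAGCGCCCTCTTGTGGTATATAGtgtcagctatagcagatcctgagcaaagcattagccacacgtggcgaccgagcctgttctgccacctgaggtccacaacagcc

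Vcan (ENSMUSG00000021614.16, chr13:89655312-89742509, minus strand) encodes versican, a large chondroitin sulfate proteoglycan of the brain matrix. Peaks were present in both libraries within 1 kb of 6 of its 9 TSSs. The group of TSSs at the start of the gene had a weak shared peak, at chr13:89742266-89742620, with 0.539 and 0.485. The strongest shared region, at chr13:89740261-89741080, covered an alternative TSS 2112 bp inside the gene and had 1.50 and 1.08. Next to it, chr13:89739301-89739740 had 0.937 and 0.908. All promoter regions of Vcan also overlap another annotated gene, Gm4117, and chr13:89739301-89739740 overlaps an exon of it. The internal start was thus 2.79-fold and 2.23-fold above the 5′-most one in the 2 libraries. Smaller promoter peaks were seen in replicate 1 alone (0.389 and 0.318) and in replicate 2 alone (0.444). Far inside the gene there was 1 shared region, with 0.398 and 0.402, and the strongest region in replicate 1 alone outside promoters had 0.478.

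Tnr (ENSMUSG00000015829.13, chr1:159523769-159931729, plus strand) encodes tenascin-R, an extracellular matrix glycoprotein that binds lecticans and is made by oligodendrocyte lineage cells and some interneurons. Tnr was the member with the most peaks, 41 in replicate 1 and 20 in replicate 2, in 41 regions of which 18 were shared. Over its 448 kb with flanks that was 9.15 and 4.46 per 100 kb, against medians of 7.27 and 4.42 over all coding genes. Pdgfra, Cspg4, Gpr17 and C1ql1 had more per 100 kb in replicate 1, and Pdgfra, Cspg4 and Neu4 in replicate 2. The Tnr promoter was the strongest of the 8 genes, 2.81 in replicate 1 and 1.61 in replicate 2, at chr1:159523601-159524380. An alternative TSS further inside the gene had 0.858 and 0.784. The strongest region outside promoters was intronic, at chr1:159717021-159717220, with 3.22 and 2.32, above the promoter in both libraries. The next, at chr1:159670787-159671100, had 1.41 and 1.20. Among regions in replicate 1 alone the strongest was chr1:159872941-159873160, with 1.38. Of 7687 replicate 1 peaks of like value 81.5% had a partner, and no base of this region was in the FDR list of replicate 2.

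Sequences of the Tnr promoter upstream of its TSS and of the intronic region are shown with overlapping footprints in capitals (chr1:159523601-159523768 and chr1:159717021-159717220, plus strand, RefSeq GRCm38.p6). The intronic one was added after its values were seen. The promoter footprint covered 36 bp in replicate 1, 8 bp of them also in replicate 2, and holds AGGNGGC, part of the motif that CTCF is known to bind. The intronic footprint covered 15 bp in replicate 1, of which replicate 2 listed the last 8 bp.
Tnr promoter: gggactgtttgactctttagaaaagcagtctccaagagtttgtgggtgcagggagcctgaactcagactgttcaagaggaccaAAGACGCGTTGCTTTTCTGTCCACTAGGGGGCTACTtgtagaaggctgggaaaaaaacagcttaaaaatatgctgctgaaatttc
Tnr intron: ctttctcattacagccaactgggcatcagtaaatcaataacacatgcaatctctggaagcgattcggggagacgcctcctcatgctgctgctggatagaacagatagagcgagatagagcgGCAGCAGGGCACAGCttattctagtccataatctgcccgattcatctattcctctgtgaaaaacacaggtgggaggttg

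The matrix partners of Vcan, Tnr and Cspg4 had promoter peaks in both libraries at 10 of 12 listed genes, beside 60.3% of all coding genes. The highest values were those of Cntn1, the adhesion molecule contactin that binds Tnr (3.37 and 3.62), and Ncan, the lectican neurocan (2.96 and 2.91). Acan, the lectican of perineuronal nets, and the hyaluronan receptor gene Cd44 had none.

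C1ql1 (ENSMUSG00000045532.5, chr11:102939264-102946688, minus strand) encodes a secreted C1q-like protein that binds the adhesion receptor Adgrb3. Its single TSS had a peak in both libraries, at chr11:102946674-102946890, with 1.08 in replicate 1 and 0.929 in replicate 2. The strongest peak of its region, 4.13 and 3.06 at chr11:102925101-102925300, covered the TSS of the neighbouring Kif18b, a mitotic kinesin gene, and lay 21388 bp from the C1ql1 TSS. The other 3 regions were in replicate 1 alone, at most 0.734. The promoter peak had 2 footprints in replicate 1 and 1 in replicate 2, none of which overlapped between the libraries, so its sequence upstream of the TSS is shown with no capitals (chr11:102946689-102946890, minus strand, 202 bp, RefSeq GRCm38.p6). It holds 20 CpG dinucleotides and is 75.7% G and C.
C1ql1: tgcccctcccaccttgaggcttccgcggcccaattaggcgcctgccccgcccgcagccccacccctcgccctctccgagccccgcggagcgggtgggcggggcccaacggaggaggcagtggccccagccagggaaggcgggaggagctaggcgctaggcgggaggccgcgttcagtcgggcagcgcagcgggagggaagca

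Neu4 (ENSMUSG00000034000.15, chr1:94020451-94028334, plus strand) encodes a sialidase that removes sialic acid from glycoconjugates. Neither of its TSSs had a peak within 1 kb, and the nearest began 7310 bp (replicate 1) or 7342 bp (replicate 2) from the 5′-most one. Its accessible regions lay on either side. The upstream one, at chr1:94008861-94009080, had 2.97 and 1.57. In replicate 1 this was exceeded, among the regions of the 8 genes, by the Kif18b start and the strongest Tnr intronic region. It overlaps an exon of Gal3st2c, while the nearest coding TSS is that of Neu4 at 11371 bp. The downstream one, at chr1:94035001-94035200, had 1.87 and 2.25, and an exonic one, at chr1:94027761-94027868, 0.478 and 0.526. A region directly beside the downstream one, chr1:94035221-94035560, had a peak of 0.875 in replicate 1 alone. Yet 339 of its 340 bases were in the FDR list of replicate 2, the lowest at 1.09e-08, with 1 footprint, so absence from a peak list was not absence of signal there.

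Both strong Neu4 regions had footprints at the same place in the 2 libraries, in capitals in the sequences (plus strand, RefSeq GRCm38.p6); the downstream one was added after its footprint was seen. In the upstream region footprints of 21 and 19 bp in replicate 1 overlapped footprints of 13 and 10 bp in replicate 2. In the downstream region both libraries listed the same 37 bp, chr1:94035044-94035080. Identical limits in both libraries were rare: 1.34% of all footprints in replicate 1 and 2.56% in replicate 2, and this was the single such footprint in the peak regions of the 8 genes. Its letters include TGCCAA, the reverse complement of TTGGCA, letters that nuclear factor I proteins are known to bind.
Neu4 upstream: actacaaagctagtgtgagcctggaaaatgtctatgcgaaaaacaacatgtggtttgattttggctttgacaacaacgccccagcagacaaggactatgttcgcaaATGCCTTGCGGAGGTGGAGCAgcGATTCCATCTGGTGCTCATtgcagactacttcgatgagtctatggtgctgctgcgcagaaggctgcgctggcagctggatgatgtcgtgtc
Neu4 downstream: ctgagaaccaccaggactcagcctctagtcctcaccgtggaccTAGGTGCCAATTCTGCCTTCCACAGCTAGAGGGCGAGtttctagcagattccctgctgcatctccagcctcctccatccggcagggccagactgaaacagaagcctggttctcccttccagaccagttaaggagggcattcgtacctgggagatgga

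Lhfpl3 (ENSMUSG00000106379.1, chr5:22746059-23275597, plus strand) encodes a membrane protein of the Lhfpl tetraspan family. Its 5′-most TSS had a shared peak at chr5:22745981-22746340 with 0.875 and 0.856, a region that exons of neighbouring noncoding genes also overlap. Replicate 2 alone had a further promoter peak at chr5:22746581-22746800, 522 bp from that TSS, with 0.444. Its second TSS, 354493 bp further on, had no peak within 1 kb in either library. Over its long body with the flanks there were 4.04 peaks per 100 kb in replicate 1 and 2.11 in replicate 2. These lay below the medians of 7.27 and 4.42 over all coding genes, but above the lower quartiles of 3.72 and 1.96. Of 24 regions 11 were shared, 10 of them intronic. The strongest of these by mean, at chr5:23189721-23189940, had 1.50 in replicate 1 and 0.402 in replicate 2. The second, at chr5:22888441-22888715, had 1.08 and 0.547. In replicate 1 alone the strongest, at chr5:22853581-22853820, had 1.09, and 65.9% of peaks of like value had a partner. The promoter peak is shown from the start codon on, where an overlapping pair of footprints (10 bp in replicate 1 and 7 bp in replicate 2, in capitals) falls in a run of GCC repeats (chr5:22746193-22746340, plus strand, RefSeq GRCm38.p6). A second pair, chr5:22746103-22746109 in replicate 1 and chr5:22746103-22746113 in replicate 2, lies in the untranslated part that is not shown. The intronic region at chr5:23189721-23189940, added after its ratio was seen, had 3 footprints in replicate 1 and none in replicate 2, hence no capitals.
Lhfpl3 promoter: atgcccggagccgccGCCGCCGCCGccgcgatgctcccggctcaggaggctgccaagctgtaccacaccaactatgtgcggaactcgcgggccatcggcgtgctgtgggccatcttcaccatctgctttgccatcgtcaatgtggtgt
Lhfpl3 intron: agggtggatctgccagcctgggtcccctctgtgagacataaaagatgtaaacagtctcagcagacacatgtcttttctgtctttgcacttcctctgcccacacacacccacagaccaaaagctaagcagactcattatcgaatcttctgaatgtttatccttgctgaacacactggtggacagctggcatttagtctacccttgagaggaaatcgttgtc

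At the 47 shared regions the value in replicate 1 was a median of 1.17 times that in replicate 2 (range 0.640 to 3.74). Over all 58484 shared regions the median was 1.18, with 5th and 95th percentiles of 0.643 and 2.19. Replicate 1 was the higher at 33 of the 47 (70.2%), and at 67.3% of all. Outside the range between those percentiles, or at its limit, lay 4 regions of the 8 genes, 3 of them in Lhfpl3. The one at the limit was the Lhfpl3 region chr5:23256121-23256300, with a ratio of 0.643. The intronic Lhfpl3 region at chr5:23189721-23189940 had the highest ratio, 3.74, at percentile 99.8 of all shared regions. The shared regions of the 8 genes were somewhat weak, with median values of 0.929 and 0.784 against 1.21 and 0.991 over all shared regions.

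**Figure D2:**
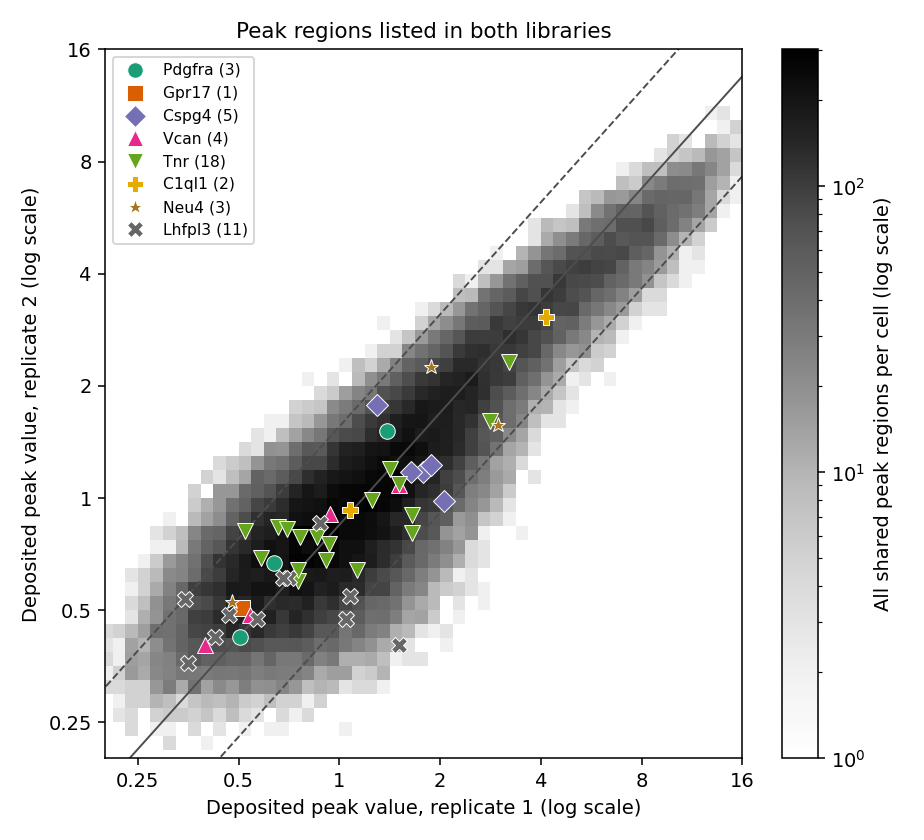
Deposited peak value in replicate 1 (x, log scale) against replicate 2 (y, log scale) for regions listed in both libraries; grey cells count all such regions and coloured symbols are the 47 regions of the 8 genes, with their number per gene in the legend. The solid line is the median ratio of all regions (1.18) and the dashed lines its 5th and 95th percentiles; the lowest cross to the right of the dashed line is the Lhfpl3 region with 1.50 and 0.402.

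Whether a replicate 1 peak had a partner went with its value. The mean share of partners among all peaks of like value was 44.9% over the 102 peaks, beside the 48.0% observed. The observed share was the higher one at 3 members: Lhfpl3 with 11 of 23 (47.8%) beside 31.6%, Vcan with 5 of 8 (62.5%) beside 31.3%, and Neu4 with 3 of 4 (75%) beside 66.1%. It was the lower one at the other 5. Gpr17 had 1 of 5 (20%) beside 34.1%, Cspg4 5 of 8 (62.5%) beside 73.8%, and C1ql1 2 of 5 (40%) beside 50.7%. Pdgfra had 3 of 8 (37.5%) beside 43.1%, and Tnr 19 of 41 (46.3%) beside 48.2%. The numbers per gene are small and no test was made. Of the 53 regions in replicate 1 alone 48 had no base in the FDR list of replicate 2, and 7 had a value of 1 or more. These shares over all 69065 regions in replicate 1 alone are not given here. Whether either count is particular to the 8 genes was therefore not tested.

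**Figure D3:**
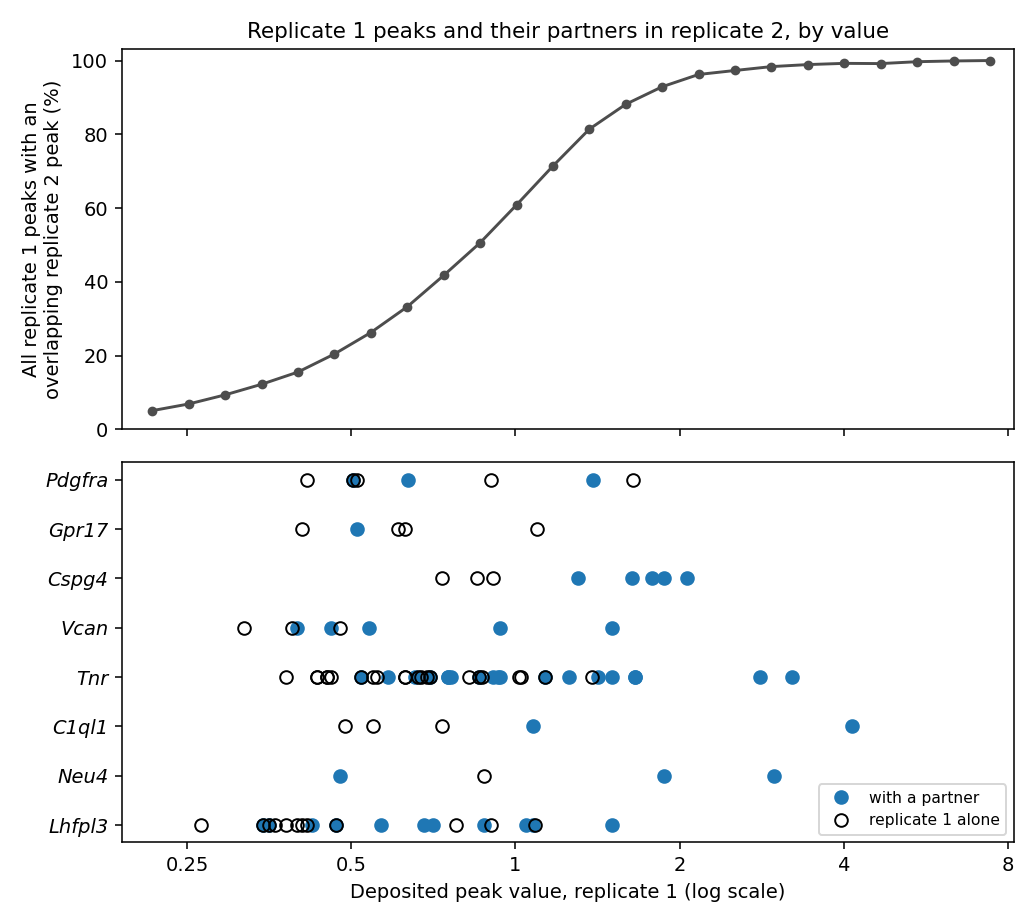
Top: share of all replicate 1 peaks that overlap a replicate 2 peak (%), in bins of the replicate 1 value (log scale). Bottom: the replicate 1 peaks of each gene at the same scale, filled where a partner was listed and open where not; the open circle of Pdgfra at 1.64 lies furthest to the right of the open circles.

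The starts of 7 of the 8 members were CpG-poor. In the 300 bp around the 5′-most TSS, CpG observed over expected was 0.6 or more at 44.4% of coding genes and at 1 of the 8 members, C1ql1 (0.708). Both libraries had a peak there at 89.7% of CpG-rich and 28.1% of CpG-poor coding genes, and at 55.4% of all. Among the 8 members both had one at 4: C1ql1, and the CpG-poor Vcan (0.443), Lhfpl3 (0.435) and Tnr (0.179). Of the 1232 coding genes with a ratio between 0.15 and 0.2, as at Tnr, 12.9% had such a peak. Between 0.4 and 0.45, as at Vcan and Lhfpl3, the share was 51.2%. The CpG-poor starts of Pdgfra (0.219), Neu4 (0.239), Gpr17 (0.200) and Cspg4 (0.477) had no such peak. The share of coding genes with one was 18.1% between 0.2 and 0.25, as at Pdgfra and Neu4. It was 58.6% between 0.45 and 0.5, as at Cspg4.

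**Figure D4:**
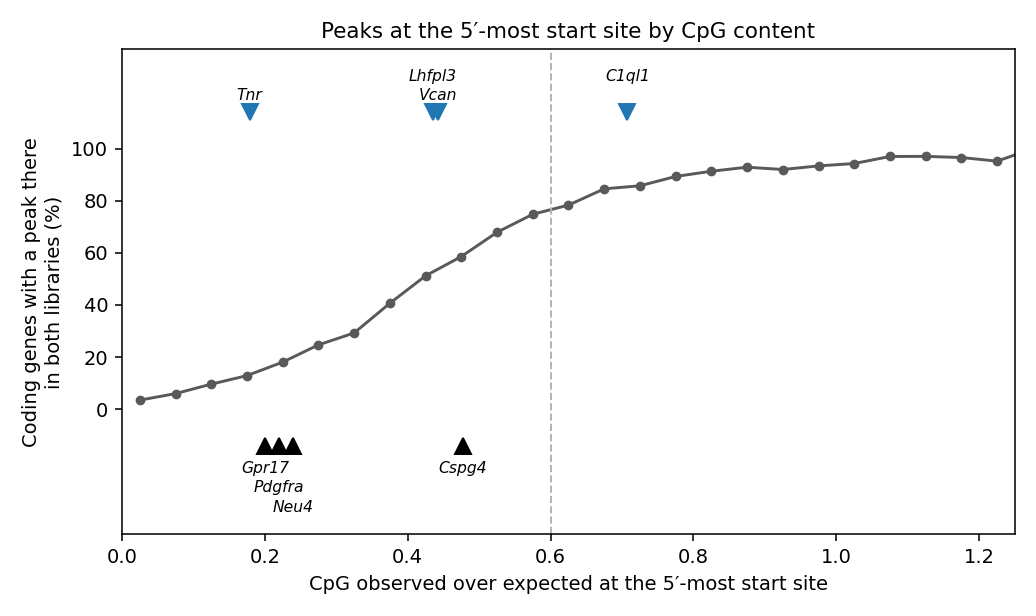
Share of coding genes with a peak at the 5′-most TSS in both libraries (%, line) in bins of CpG observed over expected there; the dashed line marks 0.6. Triangles above the line mark members with such a peak and those below it members without one, at their own CpG value, the vertical place carrying no value; Tnr has a peak at 0.179.

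Footprints were listed in 79 of the 102 replicate 1 peaks (77.5%, 68.4 to 84.5%) and in 26 of the 52 replicate 2 peaks (50%, 36.9 to 63.1%). Over all peaks the shares were 72.9% and 69.9%, and the interval for replicate 2 lies below its share. Among all peaks of like value the mean share was 75.1% for the replicate 1 peaks and 64.9% for the replicate 2 peaks. In the shorter lists 51 of 57 and 15 of 18 peaks of the 8 genes held a footprint (89.5 and 83.3%). The shares over all peaks of the shorter lists are not given here, and the 72.9% and 69.9% are for the longer lists. Of 159 footprints of replicate 1 in the peak regions 22 (13.8%, 9.32 to 20.1%) overlapped a footprint of replicate 2, against 25.8% of all footprints. Of 61 of replicate 2 there 24 (39.3%, 28.1 to 51.9%) overlapped one of replicate 1, against 52.0%. Unlike the peak shares, these overlaps were not set beside footprints in peaks of like value. The part of the weaker peak values of the 8 genes in the lower shares was not tested. Overlapping footprints were found in 17 of the 47 shared regions, in the regions of every member except Gpr17. At C1ql1 they lay only in the region that covers the Kif18b start. The share over all shared regions is not given here.

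Short motifs were searched on both strands in the 200 bp at the middle of each shared region. The letters ACAAAG or ACAATG, which Sox factors bind, were in 9 of the 47 regions (19.1%, 10.4 to 32.5%) and in 19.7% of all shared regions. The letters TTGGCA of nuclear factor I was in 13 (27.7%, 16.9 to 41.8%) against 17.7%. The E-boxes CAGCTG and CAGATG, which bHLH factors can bind, were in 10 each (21.3%, 12 to 34.9%) against 18% and 24.3%. AGGNGGC was in 12 (25.5%, 15.3 to 39.5%) against 27.9%, and GGGCGG in 8 (17.0%, 8.89 to 30.1%) against 22.7%. Each of these intervals includes the share over all regions. The motif sets may overlap each other, and a match describes letters only. Other spellings of the same motifs were not searched, here or in the footprints, so a missing match does not show that a motif is absent.

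Promoter peaks were also counted in lists of genes known from this and other cell types, beside 64.9% of all coding genes in replicate 1 and 60.3% in both libraries. Of 12 further genes high in oligodendrocyte precursors 9 had a promoter peak in replicate 1 and 6 in both libraries, led by the semaphorin Sema5a (2.78 and 3.21) and the xylosyltransferase Xylt1 (2.09 and 2.45), while Emid1 and Matn4 had none. Of 12 transcription factor genes of the oligodendrocyte lineage 10 had one in replicate 1 and 9 in both, led by Sox8 (5.98 and 3.49) and St18 (2.41 and 1.15), while Nkx2-2 and Zfp488 had none. Of 10 mature oligodendrocyte genes 9 had one in replicate 1 and 3 in both. For microglia the counts were 7 and 1 of 10, for pericytes and vascular fibroblasts 5 and 3 of 10, for astrocytes 10 and 8 of 10, for neurons 10 and 9 of 10, and for hippocampal neurons 10 and 10 of 10. Neuronal promoters were thus listed in both libraries nearly throughout, and microglial and mature oligodendrocyte ones mostly in replicate 1 alone. In replicate 1 the promoter values of the neuron list ran from 1.74 to 5.41. Those in replicate 1 alone ran from 0.451 to 0.769 for microglia and from 0.513 to 0.858 for mature oligodendrocytes. Whether the contrast goes beyond peak value was not tested. The part of tissue makeup or of library depth in the peaks that the 8 genes had in replicate 1 alone was not tested.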

How the data were processed

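DNase-seq was done in 2 libraries of 1 group. Peak values are a signal that the authors deposited per library on mm10 (GRCm38), per the descriptions deposited with the files; tested on the files, values below 1 were whole multiples of 1 step per library (100% within 0.05 steps), so they are scaled to the library. FDR values, taken as q-values, come in base lists deposited by the authors, which hold bases under 0.05. Footprints were deposited with 0.01 throughout, taken as their FDR limit. The aligner, callers, their versions and the read depth were not given in the sources used here. The mice are F1 hybrids while the build is that of C57BL/6J, and how CAST/EiJ alleles were treated is not stated either.

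Peaks overlapping by at least 1 bp within or between libraries were merged into regions, each with its highest value per library, and placed by GENCODE M21. A peak of like value is one within 10%. CpG observed over expected was taken from 250 bp before to 50 bp after a TSS. Sequence was RefSeq GRCm38.p6. Shares carry 95% Wilson intervals, for counting error only. No test was made, since there are 2 libraries of 1 group. The genes, the 10 other gene lists and the 17 motifs were chosen with earlier results of these data known; 1 listed symbol was not in the annotation, and some genes stand in 2 lists. Named were each member's promoter peaks, its 2 strongest shared regions elsewhere and its strongest region elsewhere in replicate 1 alone. Per list the 2 genes with the highest mean promoter value and the first 2 in alphabetical order without a peak were named. For lists of other cell types counts are given, and ranges of promoter values for neurons, microglia and mature oligodendrocytes. Sequences shown are the strongest shared promoter region of a member or, failing that, its strongest shared region, without annotated untranslated sequence; the sequences of Gpr17 and Vcan are not reported here. Alternatives were the shorter lists, other flanks, windows, overlaps and TSS sets, equal numbers of peaks and 1 library at a time. The overlap and motif code was tested on simulated data with known answers. Software was Python 3.11.15, pysam 0.24.0, matplotlib 3.10.9, SciPy 1.17.1, pandas 2.3.3 and NumPy 2.4.6.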

Additional observations from a re-analysis of the deposited data

How the results depend on the processing

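With the shorter peak lists the regions of the 8 genes held 57 peaks in replicate 1 and 18 in replicate 2, 31.6% of the replicate 1 peaks had a partner, and 89.5% and 83.3% of the peaks held a footprint. A reciprocal overlap of 50% lowered the partner share to 37.3%. With replicate 1 cut to as many of its strongest peaks as replicate 2 has, 60 peaks were left there and 60% had a partner. In motif windows of 100 bp 8.51% of shared regions held a Sox motif. Shares over all peaks at these alternative settings are not given here. Whether a shift is particular to the 8 genes was therefore not tested. The cause of these shifts was not tested; shorter windows and lists hold fewer bases and peaks by construction. The count of members with a promoter peak in both libraries, 5, ranged from 4 to 6: 4 in the shorter lists, 6 with windows of 2.5 kb, and 4 at the 5′-most TSS alone, a setting chosen after the data were seen. It was 5 in replicate 2 alone and 6 in replicate 1 alone. Over all coding genes the shares were 55.4% at the 5′-most TSS in both libraries, 61.6% in replicate 2 and 64.9% in replicate 1. Those at the other settings are not given here. Flanks of 0 or 50 kb moved no share of partners or footprints outside its interval. No paired analysis was possible because there is 1 group.

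With 2 libraries, a peak in 1 of them cannot be checked further. The peak scale and the read depth are not stated, so an absent peak in replicate 2 was not detected there rather than shown to be closed. Proximity to a gene does not assign a peak to it: 2 of the shared regions covered the start of Kif18b or Lims2.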
